A study of Mus musculus with 6 samples.

Results

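A set of 10 genes of the tumour necrosis factor (TNF) superfamily, taken by their symbols, were followed in follicular (Fo) B cells from the spleens of control mice and of mice that carry a lupus-derived antibody. They are the receptor genes Tnfrsf13c, Tnfrsf13b, Tnfrsf17, Fas, Cd27, Tnfrsf1b and Tnfrsf14 and the ligand genes Tnf, Ltb and Lta. All 10 had a row among the 24346 gene symbols of the files, and 9 reached the level needed for the test. The control group, WT, holds 3 libraries from B6 mice aged 8 weeks. The G9gl group holds 3 libraries from mice of the same age that are homozygous for the G9gl heavy and light chain knock-in, the germline form of an antibody to double-stranded DNA from a person with lupus. The cells of both groups were sorted from spleen as B220+ CD93- CD21lo CD23hi cells, and the series asks how anergic G9gl B cells, which persist but respond weakly, differ from WT cells. The labels do not say how many animals gave each library, nor that replicates are separate animals, so the p-values reflect variation among these libraries alone and that variation may be technical.

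TNF superfamily ligands are mostly trimeric membrane or secreted proteins, and their receptors carry cysteine-rich repeats outside the cell. Inside the cell the receptors recruit either TRAF adaptors, which lead to NF-kB, or, for death receptors such as Fas, the adaptor FADD and caspase-8. Mature B cells depend for survival on the cytokine BAFF, which is bound by the BAFF receptor (the product of Tnfrsf13c), by TACI (Tnfrsf13b) and weakly by BCMA (Tnfrsf17). The BAFF receptor releases the kinase NIK from TRAF3 and so starts the alternative NF-kB arm. B cells are also a source of lymphotoxin, made of the products of Lta and Ltb, which keeps up the structure of the spleen's follicles.

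Of the 9 tested genes, 5 were lower in G9gl (Tnfrsf13c, Tnfrsf13b, Tnfrsf1b, Tnf and Lta), 2 were higher (Fas and Tnfrsf14) and 2 did not pass (Cd27 and Ltb). Across all 10122 tested genes 23.4% were called, 11.8% as higher and 11.6% as lower, so a call alone is common in this comparison. The test was limma on log2(FPKM + 1) with Benjamini-Hochberg adjustment over all tested genes, and a gene was called at an adjusted p under 0.05. By its definition FPKM divides a gene's fragments by its transcript length and by the library's mapped fragments, so levels of different genes can be set side by side. The scaling used between these libraries is not given. The libraries of the 2 groups did not overlap for 8 of the 9 genes, against 40.8% of all tested genes. The median log2 fold change was -0.37 for the 9 genes and -0.0022 for all tested genes. The members were chosen with earlier results of these data known, so these comparisons with all tested genes are not an independent test. The median of the members depended on the filter, at -0.14 over all 10 without one and -0.65 over the 7 that passed at 5 FPKM. The 3 strongest calls by p among them were Tnfrsf13c, Fas and Tnfrsf13b. In bulk samples such as these, fewer cells that carry a transcript and less transcript per cell cannot be told apart.

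**Figure D1:**
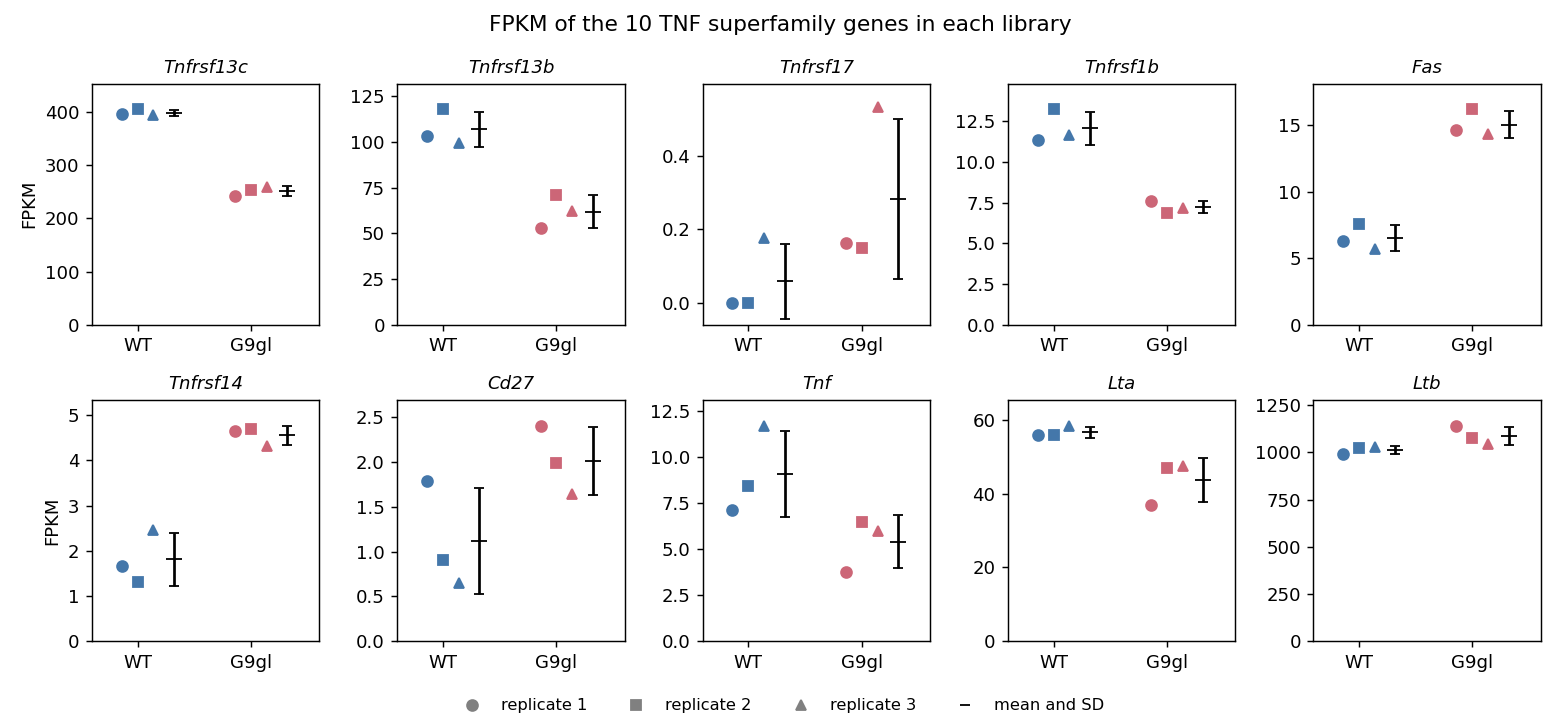
FPKM (vertical axes, a separate linear scale for each gene) of the 10 genes in the 3 WT (blue) and 3 G9gl (red) libraries, with symbols for the replicate numbers and black bars for the mean and SD. Each WT library lies above each G9gl library for Tnfrsf13c, Tnfrsf13b, Tnfrsf1b, Tnf and Lta, and below each of them for Fas, Tnfrsf14 and Ltb.

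The sequence upstream of the start site is shown for 5 members, because 3 of them are neighbouring ligand genes of which 2 were lower and 1 was not called, and the other 2 share a motif while differing in direction. All 10 members had a promoter in the RefSeq table for GRCm38.p6, the assembly of the files' build mm10. The 250 bases before the start site follow, 5′ to 3′ on the gene's strand, with capitals for the motif matches. Start sites are RefSeq's and can differ from the ends of the gene models given below.
Ltb (chr17:35194257-35194506, plus strand): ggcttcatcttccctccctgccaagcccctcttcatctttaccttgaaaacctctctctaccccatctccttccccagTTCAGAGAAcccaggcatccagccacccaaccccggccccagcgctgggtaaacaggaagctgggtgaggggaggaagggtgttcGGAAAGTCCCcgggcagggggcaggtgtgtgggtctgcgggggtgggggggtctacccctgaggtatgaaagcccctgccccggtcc
Lta (chr17:35205352-35205601, minus strand): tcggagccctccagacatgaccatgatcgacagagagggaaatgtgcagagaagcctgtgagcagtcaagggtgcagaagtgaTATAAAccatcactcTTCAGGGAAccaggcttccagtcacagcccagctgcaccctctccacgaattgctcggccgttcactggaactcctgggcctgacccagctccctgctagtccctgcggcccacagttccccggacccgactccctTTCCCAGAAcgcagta
Tnf (chr17:35202008-35202257, minus strand): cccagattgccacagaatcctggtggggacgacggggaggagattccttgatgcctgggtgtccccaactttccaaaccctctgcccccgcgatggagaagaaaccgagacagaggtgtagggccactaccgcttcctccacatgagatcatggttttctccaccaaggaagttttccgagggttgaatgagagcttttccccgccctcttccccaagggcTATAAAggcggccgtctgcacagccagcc
Tnfrsf14 (chr4:154928078-154928327, minus strand): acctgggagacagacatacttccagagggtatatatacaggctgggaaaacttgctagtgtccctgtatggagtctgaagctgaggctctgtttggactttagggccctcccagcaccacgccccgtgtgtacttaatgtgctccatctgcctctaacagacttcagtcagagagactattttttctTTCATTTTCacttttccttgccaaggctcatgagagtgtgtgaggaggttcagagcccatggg
Tnfrsf1b (chr4:145246871-145247120, minus strand): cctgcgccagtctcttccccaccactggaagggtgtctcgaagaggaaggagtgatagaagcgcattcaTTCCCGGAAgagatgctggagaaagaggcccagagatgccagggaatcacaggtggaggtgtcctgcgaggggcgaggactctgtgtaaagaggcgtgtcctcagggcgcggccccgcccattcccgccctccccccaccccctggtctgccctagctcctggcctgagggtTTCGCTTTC

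The motifs were searched on both strands from 250 bases before to 50 bases after the start site, and were chosen with these sequences in view. The kappa-B consensus, the binding motif of NF-kB, was found in 1 member, Ltb, at -87, and in 8.46% of the 32851 promoters of the table. TATAAA, the letters of a TATA box, lay in the promoters of Tnf, Lta and Tnfrsf17 and in 13.6% of all promoters. In Tnf it began 29 bases before the start site, while in Lta and Tnfrsf17 it lay further off, at -167 and -114. GAAANNGAA, part of the motif of interferon regulatory factors, lay in Tnfrsf14 (higher in G9gl), Tnfrsf1b (lower) and Tnfrsf17 (not tested), and in 8.56% of all promoters. TTCNNNGAA, the palindrome that STAT factors bind, lay in Fas, Lta, Ltb and Tnfrsf1b, and in 8.3% of all promoters. No match overlapped a match of another motif in the members. The promoters of Tnfrsf13c, Tnfrsf13b and Cd27 held none of these 4 letter patterns. A match is a string of letters, not evidence of binding.

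Among the receptors for BAFF, Tnfrsf13c and Tnfrsf13b were both lower in G9gl, while Tnfrsf17 was near 0 in both groups. Tnfrsf13c (ENSMUSG00000068105.11, chromosome 15, 82221743 to 82224369, minus strand, mm10) had 396, 405 and 394 FPKM in WT replicates 1 to 3 and 242, 253 and 259 FPKM in G9gl replicates 1 to 3. The spread within each group was small beside the gap between them. The mean fell from 398 ± 5.67 to 251 ± 8.71 FPKM (each FPKM mean is given ± SD over the 3 libraries of a group). The log2 fold change was -0.66 ± 0.048 (SE) with a limma adjusted p of 2.1e-05, and over all the alternative settings that p ran from 6.9e-06 to 0.00053.

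Tnfrsf13b (ENSMUSG00000010142.12, chromosome 11, 61126755 to 61149372, plus strand), whose product TACI also binds the ligand APRIL, had 103, 118 and 99.2 FPKM in WT and 53.0, 70.7 and 62.0 FPKM in G9gl. The highest G9gl library, replicate 2, lay well under the lowest WT library. Its mean fell from 106.8 ± 9.71 to 61.9 ± 8.84 FPKM, a log2 fold change of -0.78 ± 0.10 (SE, limma adjusted p 0.00072). Tnfrsf17 (ENSMUSG00000022496.5, chromosome 16, 11313812 to 11320074, plus strand), the gene of the plasma cell receptor BCMA, was listed at 0, 0 and 0.176 FPKM in WT and at 0.162, 0.150 and 0.533 FPKM in G9gl. That corresponds to an estimated 0 to 4.09 fragments per library, so a difference was not detectable at this depth. It failed the filter of at least 1 FPKM in at least 3 libraries. Without a filter its log2 fold change was 0.27 ± 0.13 (SE), with a limma adjusted p of 0.27.

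The share of the 2 BAFF receptors relative to each other was compared as a ratio within each library, which does not depend on how libraries are scaled. The ratio of Tnfrsf13b to Tnfrsf13c was 0.261, 0.291 and 0.252 in WT and 0.219, 0.279 and 0.240 in G9gl, and the groups overlapped. Its log2 difference was -0.13, with a two-sided exact permutation p of 0.4 (0.5 after adjustment over the 5 ratios). With 3 libraries against 3 the smallest p such a test allows is 0.1, and 5 ratios were compared in all. A ratio to Tnfrsf1b was computed as well, and here too the groups overlapped, at 9.10, 8.89 and 8.52 for Tnfrsf13b to Tnfrsf1b in WT and 6.96, 10.3 and 8.64 in G9gl (log2 difference -0.053, exact permutation p 0.8 before and after adjustment).

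Tnfrsf1b (ENSMUSG00000028599.10, chromosome 4, 145213463 to 145246870, minus strand) encodes TNF receptor 2, which binds TNF and lymphotoxin alpha and lacks a death domain. It had 11.4, 13.2 and 11.6 FPKM in WT and 7.61, 6.88 and 7.17 FPKM in G9gl. All 3 G9gl libraries were below all 3 WT libraries, and the G9gl values lay close together. The mean fell from 12.1 ± 1.01 to 7.22 ± 0.365 FPKM, a log2 fold change of -0.67 ± 0.093 (SE, limma adjusted p 0.00098). The log2 fold changes of the 3 receptor genes that fell lay between -0.66 and -0.78. The gene of the other TNF receptor, Tnfrsf1a, was at most 0.73 FPKM in any library and was not tested, and Ltbr, the receptor gene for membrane lymphotoxin, was at most 0.044 FPKM.

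Fas and Tnfrsf14 were the 2 receptor genes that rose. Fas (ENSMUSG00000024778.13, chromosome 19, 34290666 to 34327772, plus strand), the death receptor that removes autoreactive and activated lymphocytes, had 6.29, 7.58 and 5.72 FPKM in WT and 14.7, 16.2 and 14.3 FPKM in G9gl. The lowest G9gl library exceeded the highest WT library. The log2 fold change was 1.10 ± 0.11 (SE, limma adjusted p 0.00014), a rise of 2.14-fold on the log2(FPKM + 1) scale. Tnfrsf14 (ENSMUSG00000042333.16, chromosome 4, 154921933 to 154928563, minus strand) encodes HVEM, the ligand of the inhibitory receptor BTLA and a receptor for LIGHT and lymphotoxin alpha. It had 1.67, 1.31 and 2.45 FPKM in WT and 4.65, 4.69 and 4.32 FPKM in G9gl. The G9gl libraries were close to one another and all above WT replicate 3, the highest of the WT libraries. Its log2 fold change was 1.002 ± 0.16 (SE, limma adjusted p 0.0018), on an estimated 14.9 to 60.2 fragments per library. That value depends on the pseudocount, with 1.33 at a pseudocount of 0.1 and 0.49 at 5, since the gene is low. Relative to Tnfrsf13c within a library, Tnfrsf14 was at 0.00421, 0.00324 and 0.00623 in WT and at 0.0192, 0.0186 and 0.0167 in G9gl. The groups did not overlap, and the exact permutation p was 0.1, the smallest this design allows (0.17 after adjustment over the 5 ratios).

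Cd27 (ENSMUSG00000030336.14, chromosome 6, 125232622 to 125237010, minus strand), a costimulatory receptor gene and, in people, a marker of memory B cells, was not called. It had 1.78, 0.905 and 0.655 FPKM in WT and 2.40, 1.98 and 1.64 FPKM in G9gl, and WT replicate 1 lay above G9gl replicate 3. The log2 fold change was 0.54 ± 0.20 (SE, limma adjusted p 0.090), on an estimated 9.66 to 38.2 fragments per library. It was 0.89 at a pseudocount of 0.1 and 0.1995 at 5. Of the WT libraries only replicate 1 reached 1 FPKM, so the gene passed the filter mainly through the G9gl group. Without WT replicate 1 its limma adjusted p was 0.022. Cd27 lies inside Vamp1 on the opposite strand, and the library kit keeps no strand. Vamp1, a vesicle fusion gene, was itself lower in G9gl, from 25.7 ± 1.15 to 18.3 ± 1.41 FPKM (limma adjusted p 0.0027). Reads of the 2 genes cannot be told apart where they overlap.

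Markers of other cells that carry these receptors were read in the same libraries, where 11.8% of all tested genes were higher and 11.6% lower. Of 8 tested macrophage or monocyte markers, out of a list of 12, 6 were higher in G9gl and none was lower. The summed level of the 12 was 17.0 to 21.6 FPKM in WT and 40.8 to 48.0 FPKM in G9gl, and none of the 12 was at 0 in all libraries. Of a list of 7 NK cell markers Prf1 and Klrd1 were tested and higher (summed 2.27 to 4.10 FPKM in WT and 7.12 to 10.96 FPKM in G9gl), as was 1 of 2 tested neutrophil markers (summed over 5 genes, 2.11 to 7.78 and 14.4 to 34.1 FPKM). None of 3 tested T cell markers, of a list of 8, was called, with sums of 4.51 to 7.36 FPKM in WT and 7.36 to 8.16 FPKM in G9gl. Of 4 tested germinal centre B cell markers, of a list of 7 that holds Fas itself, 3 were higher and 1, Bcl6, was lower (summed 72.4 to 75.9 and 75.5 to 77.8 FPKM). Most of that sum was Bcl6, at a mean of 63.2 FPKM in WT and 48.2 FPKM in G9gl. Of 5 tested markers of memory or age-associated B cells, of a list of 9 that holds Cd27, 2 were higher and none lower (summed 25.7 to 26.7 and 48.8 to 52.9 FPKM). Of 3 tested dendritic cell markers, of a list of 8, 2 were higher and none was lower (summed 43.8 to 54.1 and 63.6 to 69.3 FPKM, with Clec10a at 0 in all libraries). Bst2 alone made up most of that sum, at a mean of 46.1 FPKM in WT and 61.8 FPKM in G9gl. The part of such cells in the higher Fas and Tnfrsf14 values, and in the Cd27 values, was not tested. The 8 B cell markers summed to 8437 to 8839 FPKM in WT and 7889 to 8267 FPKM in G9gl, with 2 higher and 4 lower. Of 4 tested markers of transitional B cells, of a list of 7, 2 were lower (summed 721 to 768 and 277 to 303 FPKM), and of 8 marginal zone markers 1 was higher and 4 were lower (702 to 735 and 574 to 598 FPKM). Of 4 tested plasma cell markers, of a list of 6 that holds Tnfrsf17, 2 were higher and 1 was lower (summed 128 to 142 and 143 to 152 FPKM). Xbp1, which was not called, made up most of that sum, at a mean of 95.9 FPKM in WT and 105 FPKM in G9gl. Klrd1, Zbtb46 of the dendritic cell list and Jchain of the plasma cell list reached 1 FPKM in the G9gl libraries alone, so they entered the test only through the group where they are high. Of the genes of the sort gate, Cd93 was at 1.65 ± 0.147 and 1.46 ± 0.385 FPKM, and Cr2 and Fcer2a, which encode CD21 and CD23, were lower in G9gl.

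The 3 ligand genes lie side by side on chromosome 17, in the order Ltb, Tnf, Lta, and Tnf and Lta were lower in G9gl while Ltb was not called. Ltb (ENSMUSG00000024399.5, 35194439 to 35196320, plus strand), which encodes the membrane anchor of lymphotoxin, was the most abundant of the 10 genes. It had 990.3, 1024 and 1026 FPKM in WT and 1139, 1074 and 1046 FPKM in G9gl. The G9gl libraries were all above the WT libraries, but by little. The log2 fold change of 0.0995 ± 0.049 (SE, 95% interval -0.011 to 0.21) did not pass (limma adjusted p 0.18), and its sign depended on the scaling. It was -0.11 after quantile normalization and -0.033 with each library rescaled to the same sum (TPM), a rescaling that moved the median of all tested genes to -0.13.

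Tnf (ENSMUSG00000024401.14, 35199381 to 35202007, minus strand), the founding cytokine of the family, had 7.11, 8.42 and 11.7 FPKM in WT and 3.76, 6.49 and 5.97 FPKM in G9gl. WT replicate 3 was the highest and G9gl replicate 1 the lowest, and the gap between the groups was small. The log2 fold change of -0.65 ± 0.20 (SE) passed narrowly (limma adjusted p 0.044), and was -0.43 at a pseudocount of 5. The call was lost without WT replicate 2 (adjusted p 0.093), WT replicate 3 (0.13), G9gl replicate 1 (0.090) or G9gl replicate 3 (0.061). Lta (ENSMUSG00000024402.5, 35203165 to 35205351, minus strand), which encodes the soluble lymphotoxin chain, had 55.8, 55.8 and 58.4 FPKM in WT and 36.9, 46.9 and 47.5 FPKM in G9gl. Replicate 1 was the lowest of the G9gl libraries, as for Tnf. The same library had the highest levels of some markers of other cells. The erythroid marker Hba-a1, a globin gene with a near copy, had 40.7, 25.8 and 42.7 FPKM in WT and 205, 67.5 and 29.7 FPKM in G9gl and was not called. The 5 erythroid markers in the files, of which 1 was tested and none was at 0 in all libraries, summed to 41.5 to 43.4 FPKM in WT and 60.2 to 219.8 FPKM in G9gl. The neutrophil marker S100a8 had 4.07, 1.88 and 1.36 FPKM in WT and 19.2, 10.3 and 10.4 FPKM in G9gl. The mean of Lta fell from 56.6 ± 1.48 to 43.8 ± 5.96 FPKM, a log2 fold change of -0.37 ± 0.094 (SE, limma adjusted p 0.019). Without WT replicate 2 or WT replicate 3 the adjusted p of Lta was 0.055 and 0.063. Without G9gl replicate 1 the log2 fold change was -0.26 for Lta (adjusted p 0.018) and -0.45 for Tnf. The part of these other cells in the Tnf and Lta values was not tested.

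The balance of the ligands within a library was also compared. The ratio of Ltb to Lta was 17.8, 18.4 and 17.6 in WT and 30.9, 22.9 and 22.04 in G9gl, and that of Ltb to Tnf was 139, 122 and 87.9 in WT and 303, 165 and 175 in G9gl. For both ratios every G9gl library exceeded every WT library, with G9gl replicate 1 the highest. The log2 differences were 0.48 and 0.85, each with an exact permutation p of 0.1 (0.17 after adjustment over the 5 ratios), so neither can pass a threshold of 0.05.

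**Figure D2:**
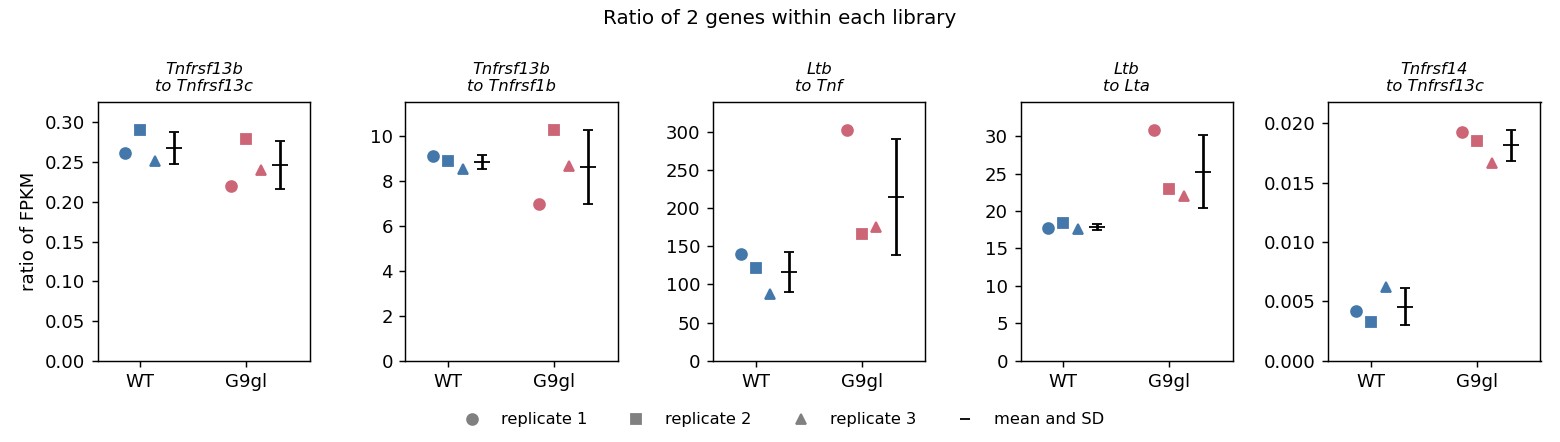
Ratio of the FPKM of 2 genes within each library (vertical axes, linear from 0), for the 3 WT (blue) and 3 G9gl (red) libraries, with the mean and SD in black. The groups overlap for both ratios of Tnfrsf13b and lie apart for Ltb to Tnf, Ltb to Lta and Tnfrsf14 to Tnfrsf13c.

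**Figure D3:**
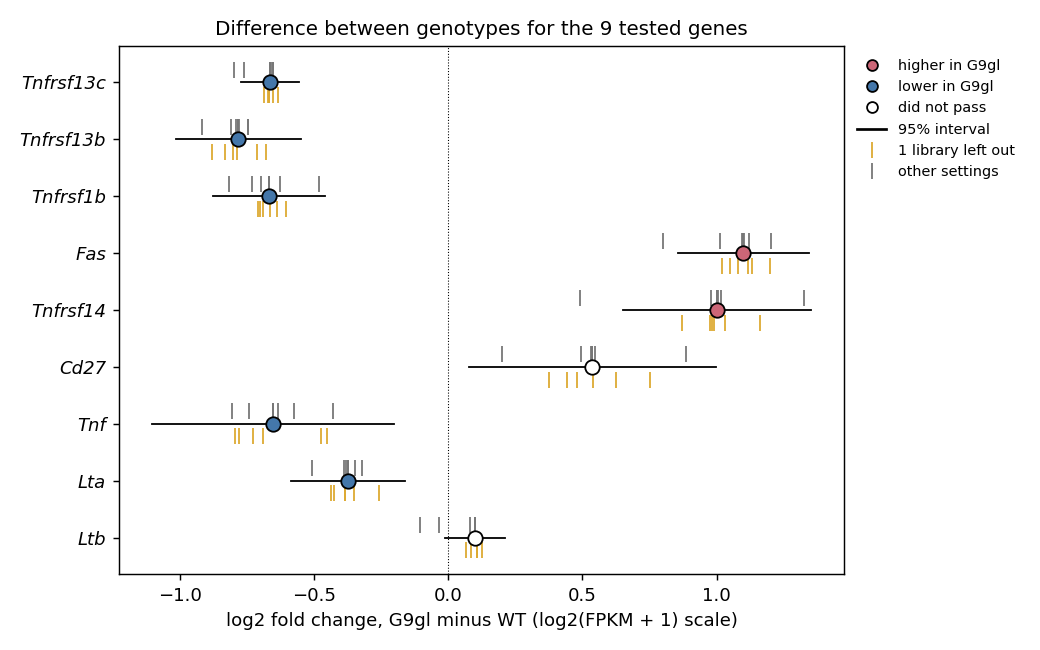
Log2 fold change (horizontal axis, G9gl minus WT on the log2(FPKM + 1) scale) of the 9 tested genes, with the 95% interval of the limma fit as a line and filled circles for called genes. Ticks give the value under each alternative setting (grey, above) and with 1 library left out (yellow, below), and only Ltb has ticks on both sides of 0.

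The order of the 10 genes by mean level was Ltb, Tnfrsf13c, Tnfrsf13b and Lta at the top in both genotypes. The libraries of each of these did not overlap with those of the next gene. Below Lta the order changed. In WT it ran Tnfrsf1b (12.1 FPKM), Tnf (9.07 FPKM) and Fas (6.53 FPKM), where Tnf overlapped with both neighbours, and then Tnfrsf14 and Cd27, which overlapped with each other. In G9gl Fas stood above Tnfrsf1b at 15.1 against 7.22 FPKM, with no overlap, and Tnf (5.41 FPKM) overlapped with Tnfrsf14 (4.55 FPKM). Tnfrsf17 was last in both.

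The rest of the family was mostly low. For comparison with the list counts that follow, 11.8% of all tested genes were higher and 11.6% lower. The lists too were chosen with earlier results of these data known. Of 28 receptor genes in the files, 15 were tested, of which 2 were higher, 4 lower and 9 did not pass (median log2 fold change -0.11). The member genes make up both higher calls and 3 of the 4 lower ones. The remaining lower one was Ngfr, the low-affinity neurotrophin receptor gene, from 1.99 ± 0.155 to 1.02 ± 0.136 FPKM (limma adjusted p 0.015). Cd40, which encodes the receptor for T cell help, was the most abundant receptor gene outside the 10, at 134.8 ± 5.71 and 129 ± 1.116 FPKM, and did not pass (log2 fold change -0.059, limma adjusted p 0.46). After rescaling to TPM the receptor genes split into 2 higher and 6 lower. Calls over all tested genes shifted too, to 730 higher and 2493 lower, and the TPM counts of the lists below stand beside that shift. Of 18 ligand genes 4 were tested, namely Tnf, Lta, Ltb and Tnfsf9, which encodes the ligand of 4-1BB and did not pass. The BAFF gene Tnfsf13b was at most 0.28 FPKM in any library, and the APRIL gene Tnfsf13 at most 0.068 FPKM.

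Downstream of the BAFF receptor, the alternative NF-kB arm held 12 genes, all tested. Of these 1 was higher, 3 were lower and 8 did not pass, with a median of -0.093. Map3k14, the gene of NIK, fell from 21.8 ± 0.546 to 17.4 ± 0.532 FPKM, a log2 fold change of -0.31 ± 0.070 (SE) with a limma adjusted p of 0.011. Nfkb2, which encodes the p100 precursor that NIK signalling processes, rose from 122.6 ± 6.54 to 142 ± 3.63 FPKM (adjusted p 0.025). Traf3ip3, a TRAF3-interacting protein gene, and Traf3, whose product holds NIK down, fell with log2 fold changes of -0.22 and -0.25. Map3k14 kept its call in every omission of 1 library (adjusted p 0.022 to 0.048) and every other setting, and the other three genes did not. Traf3 lost its call without any 1 of the 6 libraries (adjusted p 0.057 to 0.10), Traf3ip3 without G9gl replicate 2, WT replicate 2 or WT replicate 3 (0.059 to 0.081). Nfkb2 kept its call only when WT replicate 2 or G9gl replicate 1 was the library left out (0.071 to 0.097 in the other cases). After rescaling to TPM none was higher and 5 were lower.

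Of the 22 genes of receptor adaptors and the canonical NF-kB arm, 4 were higher (Traf1, Nfkbia, Nfkbie and Tnfaip3), 3 lower (Ikbkb, Traf5 and Tnip1) and 15 did not pass (median -0.0015). Traf1, an adaptor that binds TNF receptor 2 and is itself induced by NF-kB, had 15.9, 16.2 and 16.0 FPKM in WT and 33.4, 40.9 and 39.5 FPKM in G9gl. That is a log2 fold change of 1.19 ± 0.086 (SE, limma adjusted p 2.1e-05). Nfkbia, Nfkbie and Tnfaip3 encode inhibitors of the pathway. So do Tnip1, which was lower (log2 fold change -0.21, limma adjusted p 0.048), and Nfkbib and Cyld, which did not pass. Nfkbia rose from 389 ± 13.3 to 525 ± 11.2 FPKM (limma adjusted p 0.00026). Ikbkb, the gene of the kinase that inactivates the product of Nfkbia, fell from 113.8 ± 6.50 to 87.3 ± 4.22 FPKM (limma adjusted p 0.0025), and Traf5 from 101 ± 0.892 to 78.4 ± 5.72 FPKM (limma adjusted p 0.0031). TPM gave 4 higher and 7 lower.

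The death receptor arm, which Fas feeds, held 14 tested genes. Of these 3 were higher, 2 were lower and 9 did not pass, with a median of 0.080. Among the higher genes were Casp8, which encodes the initiator caspase that Fas recruits, and Pea15a, whose product binds FADD, and among the lower ones was Bid, which links caspase-8 to mitochondria. Casp8 went from 60.6 ± 3.19 to 71.0 ± 4.37 FPKM (limma adjusted p 0.040). The number higher ran from 0 to 2 and the number lower was 1 with any 1 library left out, and TPM gave 0 higher and 4 lower. Casp8 kept its call only without G9gl replicate 2 and Bid only without WT replicate 1. In the other omissions the adjusted p was 0.054 to 0.11 for Casp8 and 0.074 to 0.13 for Bid. Fadd had 6.996 ± 0.367 and 5.67 ± 0.157 FPKM and did not pass (limma adjusted p 0.074).

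Of 21 tested genes on the list of BAFF survival effectors, 3 were higher, 8 lower and 10 did not pass (median -0.20). The list was not split by whether a gene favours or opposes survival, so these counts give no direction of survival signalling. Over all tested genes 11.8% were higher and 11.6% lower. The higher ones were Pim2, a survival kinase gene, and Bcl2a1b and Bcl2a1d, anti-apoptotic genes that are near copies of one another and could share fragments. Pim2 had 44.4, 55.2 and 59.8 FPKM in WT and 123, 116 and 106.6 FPKM in G9gl, a log2 fold change of 1.11 ± 0.10 (SE) with a limma adjusted p of 9.8e-05. Among the lower ones were Cr2, part of the sort gate, with a log2 fold change of -1.09 ± 0.061 (SE), and Prkcb, a kinase gene of B cell receptor and BAFF signalling, with -0.62 ± 0.062 (SE, limma adjusted p 0.00016). Akt1, the gene of a survival kinase, fell furthest, from 58.3 ± 1.64 to 16.3 ± 6.14 FPKM (limma adjusted p 0.00033). It lies on chromosome 12, at 112653821 to 112674884, as does Traf3, at 111166370 to 111267153. Their distance from the heavy chain knock-in was not examined, and its part in these falls was not tested. Foxo1, Mcl1, Bcl2, Prkcd and Fcer2a, the last also part of the sort gate, made up the rest, with log2 fold changes from -0.45 to -0.20. TPM gave 3 higher and 10 lower.

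The list of proteases that cut the family's ligands and receptors also holds subunits and inactive relatives of such enzymes. Of its 12 genes 2 were higher, 2 were lower and 8 did not pass (median 0.034). The shares over all tested genes were 11.8% and 11.6%. Furin, whose product releases BAFF and APRIL, fell from 7.70 ± 2.74 to 2.14 ± 0.270 FPKM (limma adjusted p 0.0018), with 9.77, 8.74 and 4.59 FPKM in WT. Rhbdf2, which encodes the inactive rhomboid that matures the TNF-shedding enzyme, fell from 44.7 ± 2.75 to 32.004 ± 3.86 FPKM (limma adjusted p 0.0050), whereas its relative Rhbdf1 rose from 4.37 ± 0.560 to 45.2 ± 11.1 FPKM (limma adjusted p 4.4e-06). The shedding enzymes themselves did not pass. Adam17, which cuts TNF, had 32.01 ± 2.06 and 33.8 ± 1.83 FPKM, and Adam10, which cuts TACI and the BAFF receptor, had 38.9 ± 1.72 and 33.3 ± 2.73 FPKM (limma adjusted p 0.49 and 0.064). Aph1a, a gamma-secretase subunit gene, rose with a log2 fold change of 0.27 and kept its call only without G9gl replicate 3 (adjusted p 0.069 to 0.094 in the other omissions). TPM gave 1 higher and 3 lower.

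**Figure D4:**
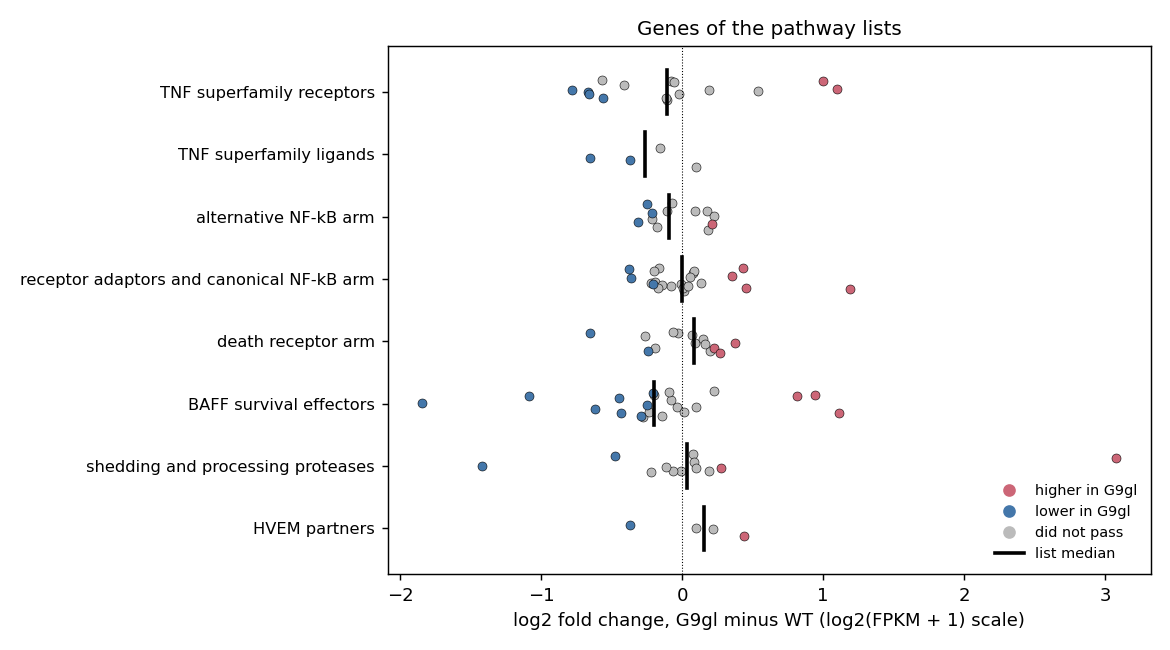
Log2 fold change (horizontal axis, G9gl minus WT on the log2(FPKM + 1) scale) of each tested gene of the pathway lists, coloured by call, with the list median as a black bar. The medians lie between -0.27 and 0.16, with called genes on both sides of 0 in every list but that of the ligands. With TPM no gene of the alternative NF-kB and death receptor arms is higher, and calls over all tested genes shift to 730 higher and 2493 lower.

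Of the partners of HVEM, Btla rose from 141 ± 5.53 to 192 ± 12.03 FPKM, a log2 fold change of 0.44 ± 0.061 (SE) with a limma adjusted p of 0.00089, beside the rise of Tnfrsf14 and the fall of Lta. Ptpn6 and Ptpn11, phosphatase genes that BTLA acts through, did not pass, and the LIGHT gene Tnfsf14 was at most 0.25 FPKM in any library.

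The genes next to the members on their chromosomes were read as well. Of 11 tested neighbours or overlapping genes, none was higher, 3 were lower and 8 did not pass, where 11.8% of all tested genes were higher and 11.6% lower. Besides Vamp1 these were Shisa8, 8928 bases from Tnfrsf13c, and Hes5, a Notch target gene 32360 bases from Tnfrsf14. Shisa8 had 9.46, 10.2 and 10.3 FPKM in WT and 0.904, 1.05 and 0.804 FPKM in G9gl (limma adjusted p 1.7e-06), the same direction as Tnfrsf13c. Hes5 fell from 5.40 ± 0.554 to 1.66 ± 0.296 FPKM (limma adjusted p 0.00017), opposite to Tnfrsf14. A microRNA gene within Cd27, Mir8113, was listed at 0 in 5 libraries and at 113 FPKM in G9gl replicate 1.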

How the data were processed

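RNA sequencing of 3 WT and 3 G9gl libraries was analysed. Per the labels' protocols, RNA was extracted with Trizol and full-length cDNA was made with the SMART-Seq HT kit, followed by Nextera libraries. The submitters' processing notes name Cufflinks 2.2.1, TopHat2 2.0.13, SAMtools 0.1.19, Bowtie2 2.2.3 and build mm10. The authors deposited 1 FPKM value per gene symbol and library. Which annotation and which scaling were used is not given in the sources used here. By the definition of FPKM each value depends on all mapped fragments, so abundant transcripts can shift the others.

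The FPKM values summed to 603054 to 611557 in WT and 657759 to 671533 in G9gl. Depth was estimated as 9400000 to 10940000 fragments per library. It came from the FPKM that 1 fragment gives in genes with 1 transcript of at least 1500 bases. If the libraries were scaled to each other, this is a scaled total and not depth. Fragments per gene were taken from this total and assume the longest transcript. Genes that reached 1 FPKM in 3 or more libraries were tested with limma 3.58.1 in R 4.3.3 (eBayes with trend, genotype as the only term) on log2(FPKM + 1), which understates changes of low genes. Tested on simulated data for this comparison, with 10122 genes of which 200 were changed, the fit recovered 100% of 2-fold and 98% of 1.5-fold changes, and 7.91% of its calls were false. These folds were set on the FPKM + 1 scale, with normal noise of an SD smoothed over genes of like level. Far fewer genes were changed than the 23.4% called in the data. The rates therefore need not hold for low genes or for genes noisier than others of their level. Ratios used two-sided exact permutation tests.

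The members and lists were chosen with earlier results of these data known. Named genes are the members, up to 4 called genes with the smallest p per list, neighbours on the chromosome and the gate's genes. Genes that complete a count of 5 or fewer, and Cd40, Akt1, Fadd, Ngfr, the rest of the lower BAFF effectors, the low ligand and receptor genes, the shedding enzymes and HVEM's phosphatases, were picked with their values in view. Positions came from GENCODE vM21 (GRCm38) and promoters from RefSeq. The alternatives were other pseudocounts and filters, quantile normalization, median-ratio scaling, TPM, library weights, a replicate block, a robust fit and omission of each library in turn, and for ratios FPKM + 1. Immunoglobulin genes, which would check the knock-in, were not analysed here. Some genes counted in the death receptor arm are not reported here by name.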

Additional observations from a re-analysis of the deposited data

How the results depend on the processing

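Calls for Tnfrsf13c, Tnfrsf13b, Fas, Tnfrsf1b and Tnfrsf14 kept their direction and side of the threshold in every alternative that could test them (Tnfrsf14 and Cd27 were not tested with a filter of at least 5 FPKM). Tnf was no longer called without a filter on low values (log2 fold change -0.65, adjusted p 0.14), after quantile normalization (-0.63, 0.054) or with the robust fit (-0.65, 0.053), and Lta without a filter (-0.37, 0.065). With 1 library left out Tnf ran from -0.80 to -0.45, Lta from -0.44 to -0.26 and Cd27 from 0.38 to 0.75, and Cd27 passed without WT replicate 1. Ltb changed sign after quantile normalization (-0.11) and with TPM (-0.033). The ratio of Tnfrsf13b to Tnfrsf1b changed sign without G9gl replicate 1 (log2 difference 0.093, -0.19 to 0.093 over the omissions). For the members, 1 was higher with the 5 FPKM filter and 3 were lower without a filter, and with 1 library left out 2 to 3 were higher and 3 to 5 lower. Over all genes TPM gave 730 higher and 2493 lower against 1191 and 1174 (22.6% and 50.4% of calls higher), and omissions of 1 library gave 793 to 1076 and 689 to 1175.

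For the lists, the receptors had 1 higher with the 5 FPKM filter. The ligands had 0 lower without a filter and 1 after quantile normalization or with the robust fit, and 0 to 2 with 1 library left out. The alternative NF-kB arm had 0 higher after quantile normalization or with TPM, 2 with library weights and 5 lower with TPM, and 0 to 2 higher and 1 to 2 lower with 1 library left out. The canonical arm had 7 lower with TPM. The death receptor arm had 0 higher without a filter, with TPM or with the replicate block and 1 with library weights, 0 lower without a filter and 4 with TPM, and 0 to 2 higher and 1 lower with 1 library left out. The protease list had 1 higher without a filter, with TPM or with the replicate block. It had 1 lower with the 5 FPKM filter, and 1 to 2 higher with 1 library left out. HVEM partners had 0 lower without a filter and 0 to 1 with 1 library left out. The cause of these changes was not tested.

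With the replicate number as a block Cd27 passed (0.54, adjusted p 0.048) and no call of another member changed. Deviations of same-numbered libraries correlated at 0.099, -0.069 and 0.021, and those of differently numbered libraries at -0.15 to 0.16. With deviations taken from means of only 3 libraries, these values cannot show whether same-numbered libraries were handled together. Depth limits Tnfrsf17, Cd27 and Tnfrsf14, which rest on few fragments.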
